A study of Mus musculus with 26 samples.

Results

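Mouse gastruloids whose HoxB cluster held no inserted CBS were compared at 120h with gastruloids that held 3 or more, and 15 of the 26 RNA-seq libraries of the series fell into these classes by the names of their alleles. CBS is short in this field for a binding site of CTCF, a DNA-binding protein. Gastruloids are stem cell aggregates that lengthen in culture and make tissue of the trunk and tail, and polyadenylated RNA was sequenced from whole aggregates. By its title the study concerned CTCF and the insulation of Hoxb13, and the comparison asks which genes besides Hoxb13 followed the presence of the sites. All lines carried HoxB Del/Del(i9-13), an allele name whose parts the labels do not spell out. The lines without CBS were Del, with no further edit (3 libraries), and InsDel5to10, in which Ins(CBS5-10) was followed by Del(CBS5-10) (2 libraries). The lines with CBS were Ins, with Ins(CBS5-10) (3 libraries), InsDel8to10, with Ins(CBS5-10) and Del(CBS8-10) (1 library), and InvClone1 and InvClone2, the labelled clones 1 and 2 that join Ins(CBS5-10) with Inv(CBS5-10) (4 and 2 libraries). By their names, Ins and both inverted clones held 6 CBS and InsDel8to10 held 3. A further 3 libraries at 120h, from InsDel7to10 and InvDel7to10, held 2 CBS by name and stood in neither class.

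Hox genes encode transcription factors that give cells their position along the body axis, and they are switched on in sequence from the 3' to the 5' end of each cluster. Hoxb13 is the most 5' gene of HoxB, is active late, and restrains the extension of the tail. CTCF acts as a barrier in the genome by stopping the extrusion of chromatin loops, so that enhancers on one side of its sites reach genes on the other side less often.

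Mir196a-1, a microRNA gene, lies between Hoxb13 and Hoxb9. Its sequence is shown because its reads were counted almost only where CBS were missing. The gene is on chromosome 11 at positions 96265164 to 96265265 of the plus strand (GRCm38.p6, RefSeq). Capitals mark the seed, bases 2 to 8, in the mature forms, and both mature forms in the hairpin.
mmu-miR-196a-5p: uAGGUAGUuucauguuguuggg
mmu-miR-196a-1-3p: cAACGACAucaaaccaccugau
Mir196a-1 hairpin: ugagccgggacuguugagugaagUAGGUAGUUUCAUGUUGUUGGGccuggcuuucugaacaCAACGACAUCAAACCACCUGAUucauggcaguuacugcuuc
The 5p form is shared with Mir196a-2, and mmu-miR-196b-5p has the same seed. MicroRNAs of this family bind Hox messenger RNAs, Hoxb8 among them. Libraries of polyadenylated RNA do not measure the mature forms, so the counts below are reads over the hairpin and stand for longer transcripts.

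The libraries carried 1 of 4 labels, ISML_first, ISML_second, ISML_third and TruSeq_second, and the label was a term of both fits of the 15 libraries. Under ISML_first Del (2 libraries) stood against Ins (2). Under ISML_second Del (1) stood against Ins, InsDel8to10 and InvClone1 (1 each). Under ISML_third InsDel5to10 (2) stood against InvClone1 (1) and InvClone2 (2). The TruSeq_second libraries, replicates 2 and 3 of InvClone1, had no counterpart without CBS. Del and InsDel5to10 were therefore set against different libraries, and the levels compared in the 2 contrasts share none. Both contrasts came from 1 fit of all 15 libraries, so the spread behind their p-values was shared. Total counts were 20081453 to 37716547 per library (median 23960525), mitochondrial genes took 0.587% to 1.51% of them, and 3 counts, the limit that a count of 0 allows, came to 0.0796 to 0.154 CPM (the count scaled to library size with TMM factors). The share of listed genes with a count was highest, at 54.8%, in replicate 2 of InvClone1 (TruSeq), against a median of 39.6%.

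Hoxb13 separated the classes completely. It reached 68.5, 88.3 and 32.0 CPM in Del and 36.6 and 21.5 CPM in InsDel5to10. In the lines with CBS it was 1.05, 1.14 and 0.274 CPM in Ins and 0.611 CPM in InsDel8to10, then 0.324, 0.997, 0.265 and 0.416 CPM in InvClone1 and 0.744 and 0.708 CPM in InvClone2. Every library without CBS thus stood at 21.5 CPM or more and every library with CBS at 1.14 CPM or less. The class means were 49.4 ± 27.9 CPM (SD, n = 5) without CBS and 0.653 ± 0.331 CPM (SD, n = 10) with CBS.

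Hoxb13 was 5.96 ± 0.26 higher without CBS on the log2 scale (SE; edgeR quasi-likelihood test, adjusted p = 4.82e-08). The gene lies on chromosome 11 at 96194316 to 96197447 (mm10). Within the labels the ratio of the means was 71.5 under ISML_first, 73.7 under ISML_second and 49.1 under ISML_third. An exact permutation of the class within labels gave a two-sided p of 0.00417, the smallest that its 240 arrangements can give. The permutation moved libraries and not lines, and the classes hold only 2 lines without CBS and 4 with CBS. Hoxb13 was the only gene of 16274 tested that passed an adjusted p of 0.05 in this fit (0.00614% of the genes), while 605 genes (3.72%) had an unadjusted p under 0.05. DESeq2, with the same terms, called 11 genes.

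**Figure D1:**
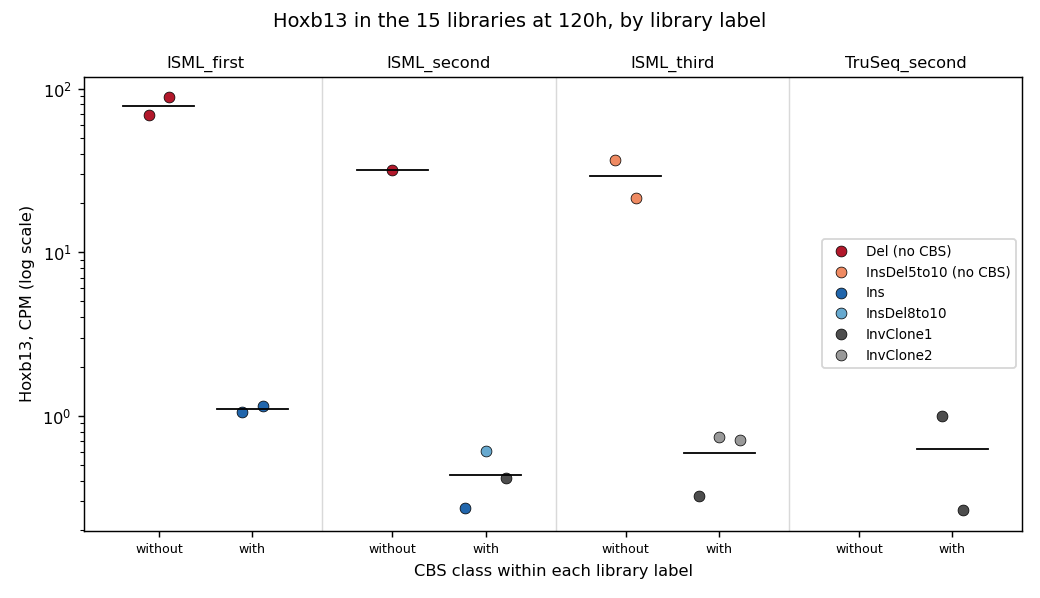
Hoxb13 in CPM on a log axis for each of the 15 libraries at 120h, split by library label and, within a label, by lines without and with CBS; points are libraries coloured by line and bars are means. The 5 libraries without CBS lie between 21.5 and 88.3 CPM and the 10 with CBS between 0.265 and 1.14 CPM, and TruSeq_second holds no library without CBS.

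Each line without CBS showed the change on its own libraries. The difference was 6.17 ± 0.33 on the log2 scale in Del (edgeR, adjusted p = 2.65e-06) and 5.59 ± 0.42 in InsDel5to10 (edgeR, adjusted p = 1.36e-04). The Del change exceeded the InsDel5to10 change by 0.58 ± 0.56, with an unadjusted p of 0.317 in edgeR. A p that misses the threshold does not show that the 2 lines reached the same level. Per length, Hoxb13 stood at 22.9 ± 9.76 FPKM in Del (SD, n = 3) and 10.4 ± 3.59 FPKM in InsDel5to10 (SD, n = 2), against 0.302 ± 0.167 FPKM in Ins (SD, n = 3). Set against Hoxb9, the next gene of the cluster, in the same library, the FPKM of Hoxb13 came to 23.5% to 44.8% in Del and 12% to 13.8% in InsDel5to10. It came to 0.119% to 0.463% of Hoxb9 in the 10 libraries with CBS. In a whole aggregate, fewer cells that express a gene and less RNA per cell cannot be told apart.

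Libraries outside the comparison gave values for Hoxb13 between and beside the classes. The lines with 2 CBS by name had 4.78 and 2.27 CPM (InsDel7to10) and 4.93 CPM (InvDel7to10) at 120h, above all libraries with 3 or more CBS and below all without. Their Hoxb13 came to 1.00% to 4.00% of the FPKM of Hoxb9. At 144h, with 1 library a line under ISML_second and no test, Hoxb13 was 16.0 CPM in Del, against 0.373 CPM in Ins, 1.03 CPM in InsDel8to10 and 0.864 CPM in InvClone1. The order of the classes was thus the same a day later, at a lower level in Del.

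The rest of the HoxB cluster did not pass the test in either line. Hoxb9, which patterns the trunk, was 235, 229 and 162 CPM in Del and 341 and 178 CPM in InsDel5to10, inside the 152 to 422 CPM of the lines with CBS. Its difference was -0.29 ± 0.25 on the log2 scale (95% interval -0.83 to 0.24). Hoxb8 differed by 0.02 ± 0.16 and Hoxb7 by -0.03 ± 0.24. Hoxb6 differed by -0.19 ± 0.21 and Hoxb5 by 0.04 ± 0.18. From Hoxb4 to Hoxb1 the differences ran from -0.05 ± 0.10 (Hoxb3) to 0.05 ± 0.16 (Hoxb1), and the signs of Hoxb1 to Hoxb5, Hoxb7 and Hoxb8 turned under some of the alternatives tried. For Hoxb3, with a narrow error, the 95% interval was -0.26 to 0.15.

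**Figure D2:**
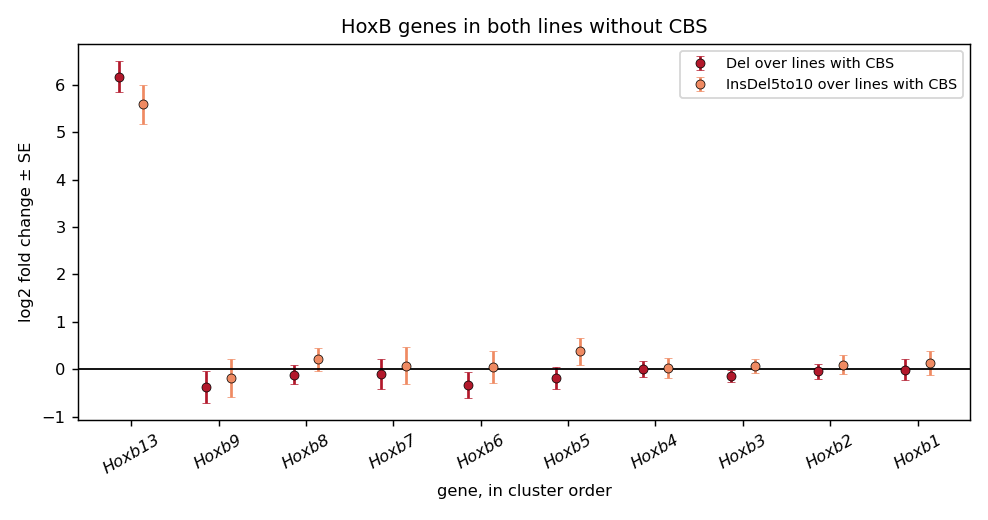
Log2 fold change over the lines with CBS, with its standard error, of the 10 HoxB genes in cluster order, for Del (left point of each pair) and InsDel5to10 (right point). Hoxb13 stands at 6.17 and 5.59, and the other 9 genes lie between -0.37 and 0.38.

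No gene on either side of the cluster passed. Of 31 listed neighbours, 29 were found and 25 were tested, with a median difference of -0.02 beside 0.00 over all genes tested. Snx11 and Cbx1, on the Hoxb1 side, differed by -0.01 ± 0.10 and -0.04 ± 0.08, and Igf2bp1, which encodes an RNA-binding protein, on the Hoxb13 side differed by 0.04 ± 0.06. Skap1 had the highest difference of the neighbours, 0.62 ± 0.43, at a mean of 0.273 CPM. Nxph3, further along chromosome 11 on the Hoxb13 side at 95509845 to 95514570 (mm10), was named after its values were seen. It had 3.24, 7.35 and 3.45 CPM in Del and 2.15 and 0.819 CPM in InsDel5to10, against 0.139 to 1.85 CPM in the lines with CBS, and did not pass (1.86 ± 0.44, edgeR adjusted p = 1.00).

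Between Hoxb13 and Hoxb9, which are 74009 bases apart in mm10, the count table lists 5 further genes. Mir196a-1 lies 6191 bases before Hoxb9. It had 25, 21 and 7 counts in Del and 23 and 17 counts in InsDel5to10. In the lines with CBS it had 0 counts in 9 libraries and 1 count in replicate 2 of InvClone1. All 5 libraries without CBS were above all 10 with CBS, although at 0.281 to 1.2 CPM the gene was low everywhere. The FPKM from Cufflinks did not show this separation. Mir196a-1 had a mean of 0 FPKM in InsDel5to10 (n = 2), as in every line with CBS, and 0.115 ± 0.199 FPKM in Del (SD, n = 3).

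Summed over the libraries, Mir196a-1 had 93 counts without CBS and 1 count with CBS, a ratio of 211 after scaling by library size (exact 95% interval 37.0 to 8424, counting error only). Within labels, with 3 counts put in place of the 0 counts with CBS, the ratio was 17.4 under ISML_first, 6.68 under ISML_second and 21.4 under ISML_third. These ratios leave out the counting error of the libraries without CBS. The adjusted p of Mir196a-1 was 0.114 in edgeR over all genes tested, so it did not pass. It passed in DESeq2 (3.78e-09), in edgeR with all libraries at 120h (0.0170) and in limma with line as a random block (9.92e-05), and also in edgeR with no filter on low counts. The lines with 2 CBS had 0 and 1 counts in InsDel7to10 and 0 counts in InvDel7to10, and at 144h the Del library had 1 count. Its higher level was thus seen at 120h and was not detectable at 144h at this depth.

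Gm53, a gene model that ends 295 bases before Mir196a-1, did not follow Mir196a-1. It had 0 counts in all 3 Del libraries and 39 and 15 counts in InsDel5to10. Ins had 3, 10 and 1 counts, InsDel8to10 had 2, InvClone1 had 0, 4, 1 and 0, and InvClone2 had 0 and 0. Del thus lay at or below the lines with CBS of its labels, and InsDel5to10 lay above those of its own. The difference between the Del and InsDel5to10 changes had an adjusted p of 0.265 in edgeR. InsDel7to10 had 14 and 9 counts. Of the other listed genes in the interval, Gm11539 had 122 counts without CBS and 305 with CBS, present in every library, and Gm27898 and Gm27605 had 0 counts in all 15 libraries. The sources used here do not give how strand was treated in counting, so reads of overlapping or antisense transcripts cannot be told apart.

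Asked of both lines at once, the answer was again Hoxb13. With the larger p of the 2 contrasts taken for each gene of 1 sign, Hoxb13 was the only gene to pass (adjusted p = 1.36e-04, edgeR fits, 0.00614% of the genes), and DESeq2 added Mir196a-1 (adjusted p = 0.0186). At an unadjusted p under 0.05 in each contrast, 17 genes were higher in both lines (0.104%) and 11 were lower in both (0.0676%), 0.172% of the genes together, against 3 genes with opposite signs (0.0184%). The sign was shared by 56.6% of all genes. Across genes, which are not independent replicates, the 2 changes correlated with a Pearson r of 0.17 and a Spearman rho of 0.17 over 16274 genes, and with an r of 0.26 over the 13087 genes with a mean of at least 1 CPM.

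**Figure D3:**
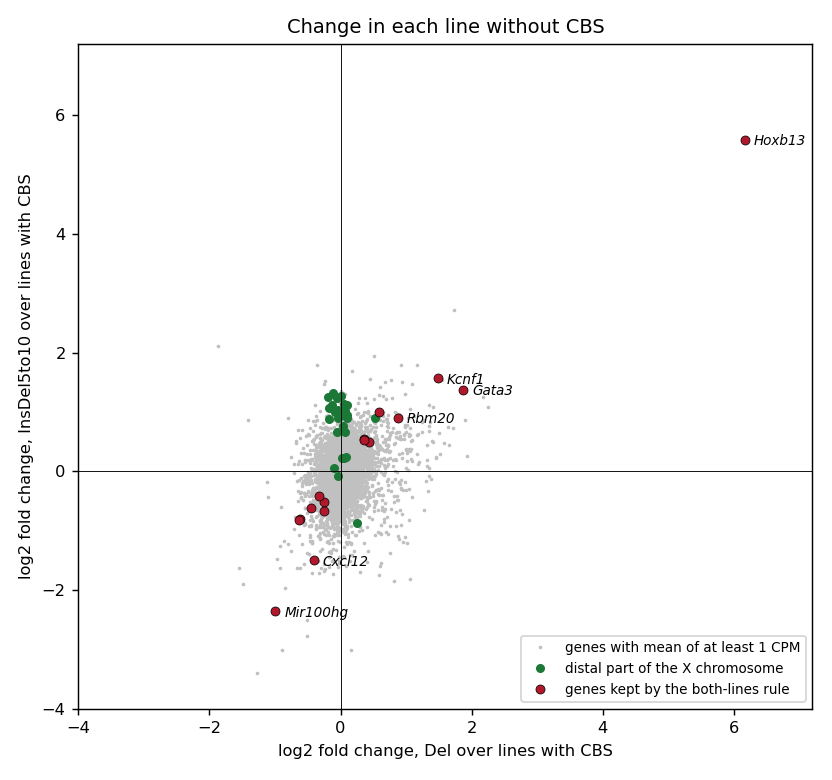
Log2 fold change of each gene with a mean of at least 1 CPM over the lines with CBS, Del on the horizontal and InsDel5to10 on the vertical axis; red points are the genes kept by the rule for both lines and green points are genes of the distal X chromosome. Hoxb13 stands alone at 6.17 and 5.59, and the Y-linked genes Ddx3y, Uty and Eif2s3y, which had few or no reads in the lines with CBS of ISML_third, lie above the frame.

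A total of 71 genes (0.436%) were higher and 50 (0.307%) were lower without CBS in every library of each of the 3 shared labels. Of the 240 arrangements of the class within labels, 1 gives no overlap in a set direction, a proportion of 0.00417. Both shares are near that proportion or below it, so lack of overlap alone does not set a gene apart. For the count over all 15 libraries below, no such proportion was worked out. With the same sign in both lines, a mean of at least 1 CPM and predicted models left out, 47 of 12081 were higher (0.389%) and 36 were lower (0.298%). Over all 15 libraries, labels set aside, 6 genes were higher without overlap (0.0369% of the genes) and 2 were lower (0.0123%). The higher ones were Hoxb13, Mir196a-1, Kcnf1, Sim2, Ciita and Atp2b2, and the lower ones were Ppp3cc and Terf2ip. Sim2, Ciita, Atp2b2, Ppp3cc and Terf2ip are named because of this count, after their values were seen. The lower pair differed little, by -0.34 for Ppp3cc, a calcineurin subunit, and by -0.15 for Terf2ip, a telomere protein, and neither passed.

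Kcnf1, which encodes a silent subunit of voltage-gated potassium channels, lies on chromosome 12 at 17172100 to 17176888 (mm10). It had 8.91, 6.48 and 4.30 CPM in Del and 10.9 and 4.44 CPM in InsDel5to10. In the lines with CBS it had 2.82, 1.93 and 2.33 CPM in Ins, 1.75 CPM in InsDel8to10, 1.48, 2.51, 1.86 and 1.62 CPM in InvClone1 and 4.00 and 2.24 CPM in InvClone2. The lowest libraries without CBS, at 4.30 and 4.44 CPM, were close to the highest with CBS, at 4.00 CPM. The libraries at 4.44 and 4.00 CPM share the label ISML_third. The other libraries with CBS had 2.82 CPM or less. Its difference was 1.52 ± 0.26 on the log2 scale, 1.48 ± 0.36 in Del and 1.57 ± 0.42 in InsDel5to10. It did not pass in edgeR (adjusted p = 0.151) and passed in DESeq2 (adjusted p = 7.39e-05). In edgeR it passed with no label term (adjusted p = 0.0252) and, with no filter on low counts, in both lines (adjusted p = 0.00452). The lines with 2 CBS stood with those that held more, at 2.39 and 2.52 CPM in InsDel7to10 and 1.93 CPM in InvDel7to10. At 96h the single InvClone1 library, with CBS, had 4.94 CPM, so the level in this line was higher a day earlier.

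Sim2, a transcription factor of the bHLH-PAS family, had 1.84, 2.25 and 0.763 CPM in Del and 0.922 and 0.431 CPM in InsDel5to10. All libraries with CBS had 5 counts or fewer, 0 to 0.197 CPM. Its difference was 3.70 ± 0.63 (edgeR adjusted p = 0.151), and DESeq2 called it (5.57e-04), as did edgeR with no label term (0.0252) and, in both lines, with no filter (0.00878). Ciita, the activator of MHC class II genes, was lower still, at 4 to 16 counts a library without CBS and 0 to 5 counts with CBS. It differed by 2.60 ± 0.44 (edgeR adjusted p = 0.151).

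Of the higher genes that the rule for both lines kept besides Hoxb13 and Kcnf1, Rbm20, Gata3 and Ngfr had the largest differences. Rbm20, a regulator of splicing in the heart, had 5.71, 7.12 and 5.06 CPM in Del and 7.48 and 6.81 CPM in InsDel5to10, against 2.54 to 5.35 CPM in the lines with CBS. Only replicate 1 of InvClone2, at 5.35 CPM, reached into the range of the libraries without CBS. The difference was 0.89 ± 0.19 (edgeR adjusted p = 0.657).

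Gata3, a transcription factor of the kidney duct, the inner ear and T cells, had 2.04, 5.47 and 2.65 CPM in Del and 1.95 and 1.81 CPM in InsDel5to10. It had 0.433 to 1.81 CPM in the lines with CBS. Replicate 4 of InvClone1, an ISML_second library at 1.81 CPM, touched the lowest library without CBS. The difference was 1.66 ± 0.36 (edgeR adjusted p = 0.657), and the ratio of means ran from 1.61 under ISML_second to 6.92 under ISML_first.

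Ngfr, a receptor of neurotrophins, lies on chromosome 11 at 95568818 to 95587735 (mm10), like Nxph3 on the Hoxb13 side of HoxB. It differed by 0.76 ± 0.21, with 14.9 to 28.7 CPM without CBS and 4.95 to 15.7 CPM with CBS. Bambi, a decoy receptor of the TGF-beta family, differed by 0.46 ± 0.12, Fut4, a fucosyltransferase, by 0.44 ± 0.12, and Cth, an enzyme of cysteine synthesis, by 0.43 ± 0.13. The ranges of these 4 genes overlapped between the classes once labels were set aside. None of the 7 genes named beside Hoxb13 passed in the edgeR class fit. DESeq2 called Kcnf1, Gata3 and Rbm20 among them, edgeR with no label term called Kcnf1, and edgeR with no filter called Kcnf1, Gata3, Rbm20, Ngfr and Cth.

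The same rule kept the 8 lower genes with the smallest larger p, of the 36 that met its other conditions. Mir100hg, the host transcript of a cluster of microRNAs, had 1.04, 1.33 and 0.843 CPM in Del and 0.512 and 0.431 CPM in InsDel5to10. It had 0.619 to 3.07 CPM in the lines with CBS, the lowest being a TruSeq library of InvClone1. The difference was -1.47 ± 0.31 (edgeR adjusted p = 0.570).

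Igfbp3, a secreted binding protein of insulin-like growth factors, had 16.6, 17.7 and 20.4 CPM in Del and 14.3 and 16.2 CPM in InsDel5to10, against 19.1 to 31.2 CPM with CBS. Its difference was -0.51 ± 0.11 (edgeR adjusted p = 0.700), and only replicate 3 of Del and replicate 1 of Ins crossed. The nuclear receptor Nr2f2 differed by -0.36 ± 0.09, Rgmb, a BMP co-receptor, by -0.36 ± 0.11, and Lrrn1, a leucine-rich repeat protein, by -0.42 ± 0.11. Rbm46, an RNA-binding protein of germ cells, and Tmem35b differed by -0.69 ± 0.17 and -0.71 ± 0.19. None passed in the edgeR class fit. Of Mir100hg, Igfbp3 and Cxcl12, DESeq2 called Mir100hg and Igfbp3, and edgeR with no filter called all of them. Calls of the other lower genes under the alternatives are not listed here.

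Cxcl12, a chemokine ligand, was the most abundant of these 8 genes and passed in 1 line. It had 377, 356 and 292 CPM in Del, against 412 and 645 CPM in Ins under ISML_first and 302 to 414 CPM with CBS under ISML_second. It had 144 and 190 CPM in InsDel5to10, against 522, 443 and 451 CPM in InvClone1 and InvClone2 under ISML_third. The change was -0.41 ± 0.19 in Del (edgeR adjusted p = 1.00) and -1.50 ± 0.24 in InsDel5to10, where it passed (edgeR adjusted p = 0.0292). That call held in 13 of 24 alternatives and in 7 of the 15 fits that left out 1 library. It was lost without any 1 replicate of Del, InsDel5to10 or InvClone2 or replicate 3 of Ins, with all libraries at 120h, in separate fits and with the replicate block. The difference between the 2 changes, 1.09 ± 0.30, did not pass (unadjusted p = 0.00305, adjusted p = 1.00, edgeR).

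**Figure D4:**
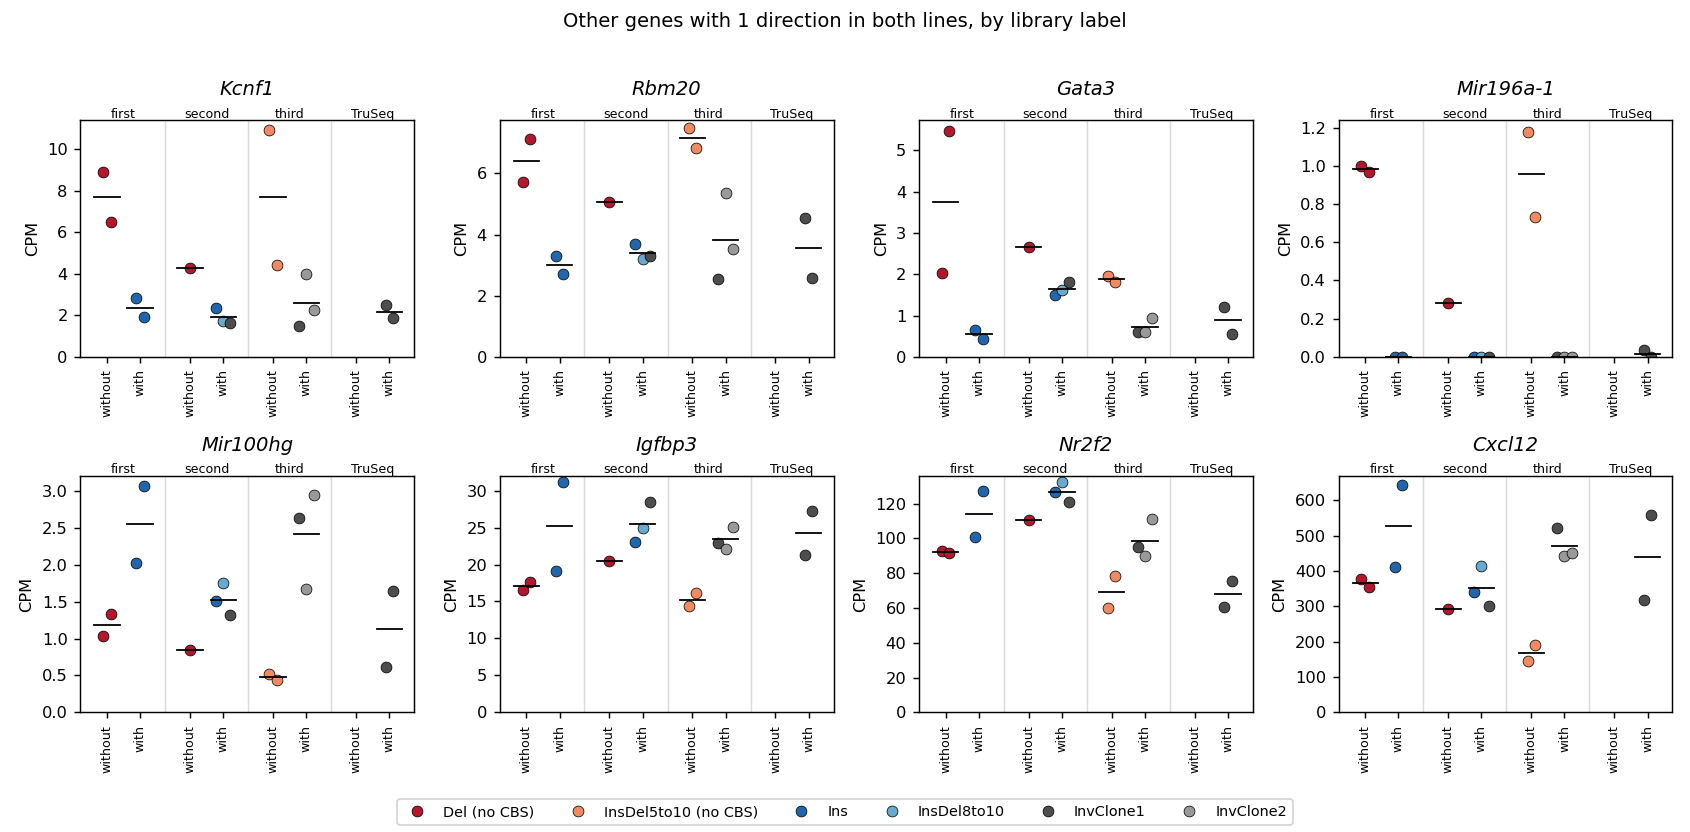
CPM of 8 genes with the same direction in both lines, by library label (named in short above each panel) and, within a label, by lines without and with CBS; points are libraries coloured by line and bars are means. Kcnf1, Rbm20, Gata3 and Mir196a-1 lie higher without CBS in each shared label, up to 10.9 CPM for Kcnf1, and Mir100hg, Igfbp3, Nr2f2 and Cxcl12 lie lower. The rule for both lines required this order in each shared label, and Mir196a-1 was named after its values were seen, so the order was set by selection.

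The same 15 genes were read at 144h in 4 ISML_second libraries that the fits did not use, 1 a line. Of the 7 higher genes, 2 stood above all 3 libraries with CBS in Del, Kcnf1 (2.09 CPM, against 1.16 to 1.41 CPM) and Gata3 (2.40 CPM, against 1.49 to 1.75 CPM). The other 5 were inside the range. Among all named genes of that abundance 27% stood above, so 2 of 7 is near the background. Of the 8 lower genes none stood below, against 12.3% of all genes of that abundance. Sim2, read for the same purpose, had 12 counts in Del and 0 to 4 counts in the 3 libraries with CBS.

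Del called 1 gene of 16274 over the lines with CBS of its labels, Hoxb13 (0.00614%), and 193 genes had an unadjusted p under 0.05 (1.19%). Igf2, an imprinted growth factor, and Igf2os, its antisense gene, were named after their values were seen. Igf2 had 17.9, 13.2 and 26.8 CPM in Del, above every other library at 120h, and 3.38 and 5.17 CPM in InsDel5to10, inside the 1.80 to 6.95 CPM of the lines with CBS. It differed by 1.93 ± 0.32 in Del and by 0.26 ± 0.43 in InsDel5to10. Igf2os differed by 1.66 ± 0.25 in Del and by 0.44 ± 0.33 in InsDel5to10. Since strand was not stated, reads of this pair cannot be told apart. Neither passed in the edgeR fits of all 15 libraries with the label term and the filter. DESeq2 called both for Del and in the class fit (0.0473 for Igf2 and 0.00725 for Igf2os). For Del, edgeR called both with no label term (0.00959 for Igf2 and 0.00775 for Igf2os) and with no filter, Igf2 without replicate 1 of InvClone1 (0.0491) and Igf2os without replicate 1 of Ins (0.0131).

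InsDel5to10 called 20 genes over the lines with CBS of its label, 17 higher (0.104%) and 3 lower (0.0184%), 0.123% together, while 726 genes (4.46%) had an unadjusted p under 0.05. Besides Hoxb13, all 16 higher genes lay on the X chromosome beyond 160 Mb, a boundary set after the values were seen. They were Hccs, Rab9, Piga, Zrsr2, Ctps2, Rbbp7, Msl3, Fancb, Txlng, Gemin8, Siah1b, Syap1, Ap1s2, Prps2, Mospd2 and Tceanc, and their changes ran from 0.90 to 1.32 on the log2 scale. Hccs, which attaches heme to cytochrome c, had 64.3 and 55.8 CPM in InsDel5to10, against 27.6 CPM in InvClone1 and 24.2 and 22.4 CPM in InvClone2 (edgeR adjusted p = 1.77e-04). In Del it had 33.6, 32.2 and 25.0 CPM, beside 23.5 to 34.2 CPM with CBS at the same labels, a difference of 0.01 ± 0.09.

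The 36 tested genes of that distal part of X had a median difference of 0.93 in InsDel5to10 and 0.02 in Del. The median of InsDel5to10 over the autosomes and the rest of X was between -0.02 and 0.02 for each chromosome. Summed, the 36 genes had 2346 and 2303 CPM in InsDel5to10 and 1105 to 1677 CPM in the other 24 libraries of the series. Both InsDel5to10 libraries thus stood above every other library of the series.

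The change of 8 of these genes, Hccs, Rab9, Piga, Zrsr2, Ctps2, Msl3, Gemin8 and Fancb, differed between Del and InsDel5to10 in edgeR (0.0492% of the genes), and 323 genes (1.98%) had an unadjusted p under 0.05 for this difference. With the replicate number as a block 5 genes differed, Hccs, Ctps2 and the Y-linked Ddx3y, Uty and Eif2s3y. Without replicate 3 of Del, or without replicate 1 of InsDel5to10, 0 genes differed in edgeR (213 and 430 at an unadjusted p under 0.05), and without replicate 1 of InvClone1 220 did. Leaving out any other library gave 2 to 10 genes.

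**Figure D5:**
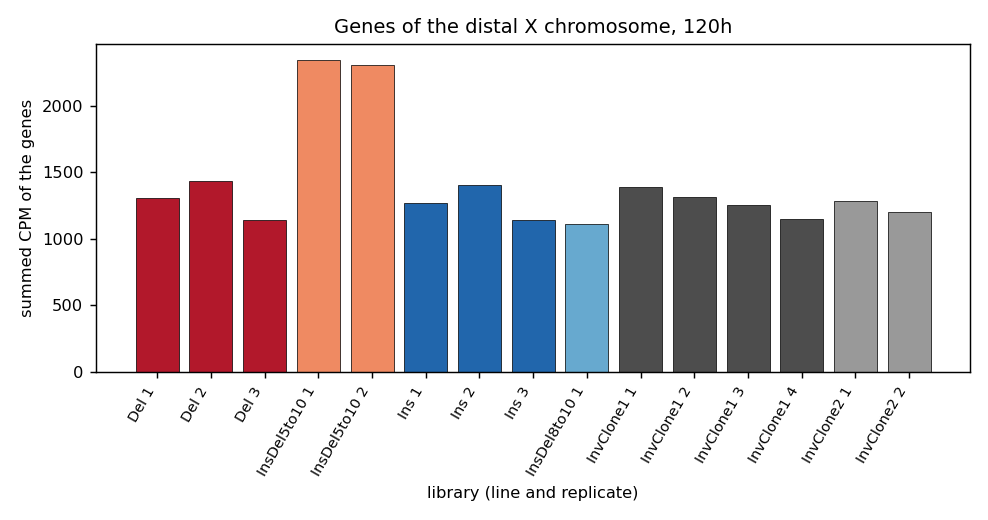
Summed CPM of 36 genes of the distal X chromosome in each of the 15 libraries at 120h, lines without CBS on the left. The InsDel5to10 libraries reach 2346 and 2303 CPM, and every other bar is lower.

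The Y-linked genes set lines apart in another way. Ddx3y had 42.1 to 59.6 CPM in Del and 71.5 and 80.7 CPM in InsDel5to10. It had 44.9 to 54.5 CPM in Ins and 88.2 CPM in InsDel8to10, but 0 to 0.103 CPM in InvClone1 and InvClone2, and Uty and Eif2s3y did the same. The libraries with CBS that InsDel5to10 was set against therefore all lacked Y-linked reads, and their part in the other differences of that contrast was not tested. Leaving out replicate 1 of InvClone1, the only library of its line under ISML_third, raised the count of InsDel5to10 to 706 genes, 88 higher and 618 lower, and leaving out replicate 1 of InsDel5to10 lowered it to 8. In a fit of the ISML_third libraries alone 4 genes passed, Hoxb13, Ddx3y, Uty and Eif2s3y.

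The 3 lower genes of InsDel5to10 were Heyl, Fmod and Cxcl12. Heyl, a target of Notch signalling in somites, had 9.38 and 13.1 CPM in InsDel5to10, against 35.0, 37.5 and 31.2 CPM in InvClone1 and InvClone2 (-1.62 ± 0.23, edgeR adjusted p = 0.0111). Fmod, a collagen-binding proteoglycan, had 11.1 and 11.3 CPM in InsDel5to10, against 31.9, 35.5 and 36.0 CPM (-1.63 ± 0.26, edgeR adjusted p = 0.0268). In Del the same genes differed by -0.18 ± 0.18 and -0.30 ± 0.20 and did not pass. The somite list had a median of -0.11 in InsDel5to10, with 0 of 15 genes called in edgeR. Pax1, a marker of the sclerotome named after its values were seen, had 3.02 and 4.27 CPM in InsDel5to10, below the 12.5 to 90.8 CPM of all other libraries compared. It did not pass (-3.01 ± 0.84, edgeR adjusted p = 0.737), and with no filter it was called lower in both lines (edgeR adjusted p = 9.32e-06). With the replicate number as a block Heyl passed (edgeR adjusted p = 0.0380), and Fmod (0.122) and Cxcl12 (0.0945) did not, nor did Siah1b (0.0518), Mospd2 (0.116) and Tceanc (0.173) of distal X. None of the 3 lower genes passed in the separate fits, without replicate 1 of InvClone2 or without replicate 1 of InsDel5to10, where the 8 calls were Hoxb13 and 7 genes of distal X. Heyl passed in 21 of 24 alternatives. Fmod passed in 16 and was also lost without replicate 1 or 2 of Del, replicate 2 of InsDel5to10 or replicate 2 of InvClone2.

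Lists of genes for the tailbud, for signalling and for cell types gave no called member besides Hoxb13 in the comparison of the classes. The tailbud list, 16 of 16 genes tested, had a median of -0.13, with T at -0.03 ± 0.22, Cdx2 at -0.13 ± 0.13 and Fgf8 at -0.08 ± 0.22. T, or brachyury, and Cdx2 keep the progenitors of the growing axis. The 17 genes of Wnt signalling had a median of 0.03 and the 15 of FGF signalling 0.07. The trunk-to-tail timing list, with Lin28a at -0.00 ± 0.10 and Gdf11 at -0.04 ± 0.13, had a median of 0.05. Ctcf itself differed by 0.01 ± 0.06, and the 14 genes of CTCF and cohesin had a median of 0.03. All of these medians stand beside 0.00 over all genes tested.

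The other late Hox genes were low and did not pass. Of 11 genes of groups 10 to 13 in HoxA, HoxC and HoxD, 3 had enough counts to be tested. Hoxa10 differed by -0.70 ± 0.43, Hoxc10 by -0.98 ± 0.59 and Hoxd10 by -1.58 ± 0.63, and Hoxd10 alone had an unadjusted p under 0.05 (0.0251, adjusted 1.00 in edgeR). All 3 differences were negative in both lines, and none was called.

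Markers of other tissues differed between libraries within the classes. Of 16 tested endoderm markers none passed, with a median of 0.73. At an unadjusted p under 0.05, 4 of the 16 were higher without CBS, Epcam, Krt19 and Dsp among them, beside 2.1% of all genes, and 0 were lower. The median was 0.90 in Del and 0.43 in InsDel5to10. Epcam, an adhesion protein of epithelia, had 18.9, 32.6 and 52.5 CPM in Del and 16.7 and 39.1 CPM in InsDel5to10, against 8.75 to 47.4 CPM with CBS. The mean log2 level of the list was 2.37 to 4.28 without CBS and 1.94 to 4.18 with CBS, so the ranges overlapped once labels were set aside. Within labels the mean of Epcam was 2.31-fold higher without CBS under ISML_first, 1.24-fold under ISML_second and 1.40-fold under ISML_third, and that of Krt8, a keratin of simple epithelia, was 2.66-fold, 1.13-fold and 1.24-fold higher in the same order. The highest Epcam value of each class came from an ISML_second library, and the part of endoderm in the differences of Kcnf1, Gata3 and the other genes above was not tested. The medians were 0.00 for presomitic, -0.13 for somite, 0.14 for neural tube, -0.29 for neural crest and 0.24 for endothelial and blood genes. They were 0.43 for intermediate mesoderm, 0.15 for notochord, 0.14 for cardiac and lateral mesoderm and -0.05 for pluripotency and germ cell genes. Glycolysis and hypoxia genes had a median of 0.30. Their mean log2 level was 7.18 to 7.93 without CBS and 6.81 to 7.36 with CBS. No member of any of these lists was called.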

How the data were processed

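Raw counts, whole numbers for 55141 genes, come from a table deposited by the authors. A second deposited table holds FPKM from Cufflinks for 55138 genes, and its loci (mm10) give the positions printed. The tools named per the submitters' processing notes are STAR 2.7.10a, cutadapt 1.18 and Cufflinks 2.2.1. Strand handling and gene annotation of the counting step are not given in the sources. Library kits were ISML and, for replicates 2 and 3 of InvClone1, TruSeq Stranded mRNA, per the labels. Of the columns, 8 matched no sample and were not used.

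The 15 libraries were fitted on their counts in edgeR 4.0.16 (R 4.3.3, robust quasi-likelihood test, TMM, minimum count 10, Benjamini-Hochberg adjustment, threshold 0.05). The class fit had terms for library label and class (10 residual degrees of freedom). The line fit had a Del and an InsDel5to10 term in place of the class (9 degrees), and "both lines" takes the larger p of its 2 contrasts for genes of 1 sign. CPM were scaled over all 26 libraries. The permutation test used log2(CPM + 0.1). The mean log2 level of a list used log2(CPM + 0.5). Intervals cover counting error only where they come from counts.

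Whether replicates are separate cultures is not labelled. The p-values therefore measure only how far these libraries spread, which may be technical. Pairs of replicates under the same label differed by a chi-square of 14.7 (Del) to 33.0 (InvClone1) per degree of freedom. Pairs across labels differed by up to 138 (InvClone1), which includes the difference between labels. Each library counted as 1 sample. Same-numbered replicates of Del and Ins deviated together (r of 0.68, 0.41 and 0.81), as did those of InsDel5to10 and InvClone2 (0.49), so a replicate block was an alternative. Replicate 3 of Del and Ins also differs from the others by its label, and within ISML_first the r was 0.27. The block was 1 factor for the replicate number over all labels, so equal numbers under different labels shared a term. It did not model pairs within a label, and calls kept or lost with it do not show what such pairing would do.

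Named genes were the 10 HoxB genes, any gene called in the class fit, and up to 8 higher and 8 lower genes of 1 sign in both lines. These had the smallest larger p, no overlap inside each of 3 labels and a mean level of 1 CPM or more, predicted models left out. Other genes, list members included, were named after their values were seen. Members, the 26 lists (367 entries) and tests were chosen with earlier results of these data known. Alternatives were DESeq2 1.42.0, its size factors, other filters, no label term, all libraries at 120h, no TruSeq libraries, separate fits, limma 3.58.1 with line as a random block, the replicate block, and leaving out each library or line. The functions were tested on simulated data. A list member is not reported here.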

Additional observations from a re-analysis of the deposited data

Results flagged for a closer look

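Single libraries stood far from the others of their set for 4 genes, 5 of 78 sets examined, and chance flags about 1 in 20. Kcnf1 was 4.00 CPM in replicate 1 of InvClone2, against 1.48 to 2.82 CPM in the other 9 libraries with CBS. Gata3 was 5.47 CPM in replicate 2 of Del, against 1.81 to 2.65 CPM in the other 4 libraries without CBS. Fut4 was 8.58 CPM in replicate 4 of InvClone1, an ISML_second library, against 3.88 to 4.53 CPM in the other 3 of that line. Mir196a-1 was 0.0344 CPM (1 count) in replicate 2 of InvClone1, against 0 in the others of its line and of its class. That count was flagged in both sets. Where all other values are 0, any single count is flagged, so the chance rate does not apply to it.

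The change in Del and the change in InsDel5to10 differed for 8 genes, all on the distal X chromosome. The Del change minus the InsDel5to10 change was -1.26 for Hccs, -1.29 for Rab9, -0.95 for Piga, -1.14 for Zrsr2, -1.07 for Ctps2, -0.95 for Msl3, -1.25 for Gemin8 and -1.08 for Fancb on the log2 scale (edgeR contrast of the 2 terms, adjusted p under the threshold).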

How the results depend on the processing

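Hoxb13 passed in every alternative, with a class difference of 5.73 to 6.21 (adjusted p 3.76e-277 to 1.69e-04), 6.06 to 6.56 in Del and 5.17 to 5.92 in InsDel5to10. The class fit called 1 gene in each fit that left out 1 library, 2 with all libraries at 120h or with limma and line as a random block, 11 in DESeq2, 255 with no filter and 3 with no label term. Del called 5 genes in DESeq2, 91 with no filter, 4 with no label term and 1 to 2 when 1 library was left out. InsDel5to10 called 39 in DESeq2, 222 with no filter, 4 in separate fits and 8 to 706 when 1 library was left out. Both lines together called 2 in DESeq2 and 10 with no filter. The difference between the lines called 23 in DESeq2, 86 with no filter, 15 with no label term and 0 to 220 when 1 library was left out. With the replicate block it called 5, and the class, Del, InsDel5to10 and both-lines counts were 1, 1, 19 and 1, with Hoxb13 at 6.08 (adjusted p = 2.31e-06). The cause of these shifts was not tested.

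Of 671 values tried for the 24 named genes 621 kept direction and side, 18 came to pass, none was lost and 32 turned sign, all of them HoxB genes near 0. When 1 library was left out, Hoxb1 ran from -0.0154 to 0.139, Hoxb2 from -0.0576 to 0.0762, Hoxb3 from -0.124 to 0.0226, Hoxb4 from -0.0592 to 0.0816, Hoxb5 from -0.153 to 0.106, Hoxb7 from -0.167 to 0.109 and Hoxb8 from -0.111 to 0.0984. Without all InvClone1 libraries Hoxb1 was -0.0178, Hoxb2 -0.0495, Hoxb5 -0.00858 and Hoxb8 -0.0556. Without all Ins libraries Hoxb3 was 0.0331, Hoxb4 -0.0137 and Hoxb7 0.0949. Hoxb2 was -0.00349 with all libraries at 120h. Hoxb5 was -0.00704 with limma and -0.0286 without InvClone2. Hoxb7 was 0.0144 with no label term and 0.0230 with the replicate block.

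InsDel5to10 has 2 libraries, and its contrast rests on 5 libraries of 1 label. No line without CBS was made with the TruSeq kit. Mir196a-1, Sim2 and Ciita rest on few counts. Each allele but the inversion is 1 line, so allele and line cannot be told apart.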
